A study of Mus musculus with 8 samples.

Results

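Neurons of the dorsomedial nucleus of the hypothalamus (DMH) were compared with neurons of the ventromedial nucleus (VMH), using 6 of the 8 arrays of the series: DMH replicates 1, 2 and 3 against VMH replicates 1, 2 and 3. The mice of all groups were 2-month-old females carrying both Nkx2-1-CreERT2 and Rosa-ZsGreen, in which tamoxifen-activated Cre turns on the green protein ZsGreen in cells that use the Nkx2-1 promoter. A laser was used to excise the green neurons, which were then pooled, so each array reports a mixture of neuron types. Each nucleus was compared with the other, and no group lacked the driver or the reporter. Which animals lie behind each sample is not given, so the spread behind each p-value is that of these samples alone and may in part be technical. The 2 arrays of the arcuate nucleus (Arc) entered only through the shared estimate of the spread.

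The DMH and the VMH lie next to each other in the tuberal hypothalamus and both take part in feeding, body temperature and energy balance. The VMH is built largely of glutamatergic projection neurons that depend on the nuclear receptor Nr5a1 during development. The DMH holds mixed GABAergic and glutamatergic neurons with many neuropeptides.

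Levels are log2 signals minus the 75th percentile of the array, so 0 marks that percentile, and the lowest signal well above background lay between -5.32 and -4.11 on these 6 arrays. Differences are DMH minus VMH on the same log2 scale. Levels of different genes come from different probes and were not compared. Of 26932 genes tested, 124 (0.46%) were higher in DMH and 218 (0.809%) were higher in VMH at an adjusted p under 0.05 (limma, Benjamini-Hochberg), and 3633 had an unadjusted p under 0.05. These genes are called higher or lower below, and a p above the threshold does not show that the nuclei were alike. In each called gene, all 3 arrays of one nucleus lay above all 3 of the other, as they did for 2513 genes towards DMH and 3389 towards VMH over all genes tested. By sign, 14591 of all genes lay towards VMH and 12340 towards DMH. The 3633 were not split by direction, so the directional counts at an unadjusted p below have no such share beside them. In bulk samples, fewer cells of a type and less RNA per cell cannot be told apart.

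**Figure D1:**
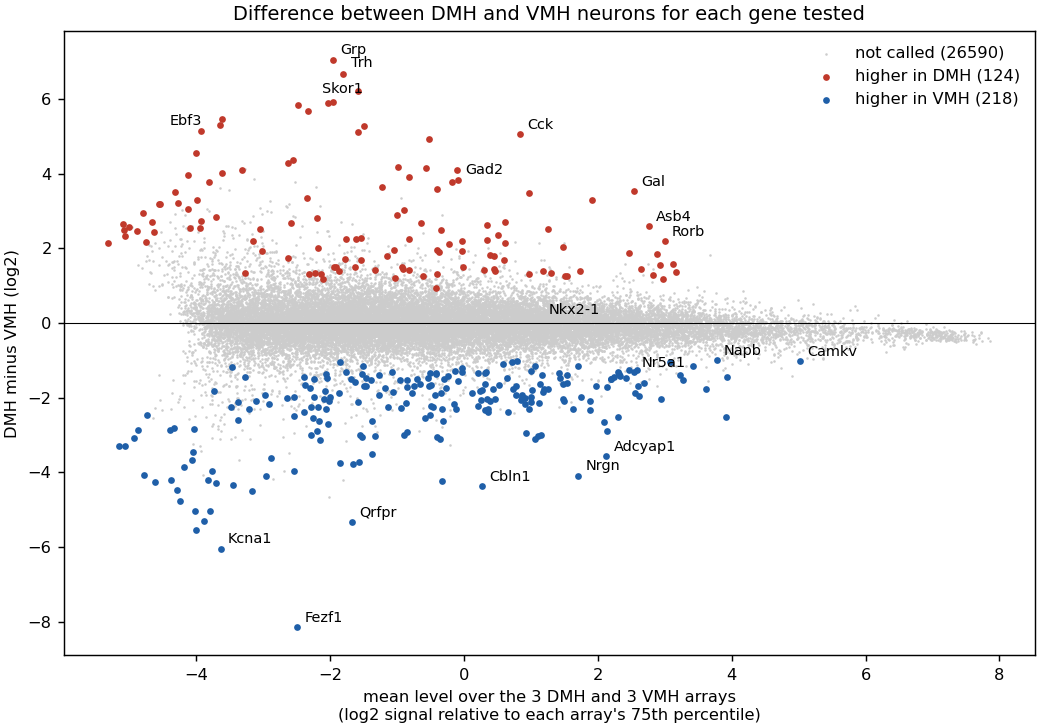
Each point is 1 of 26932 genes; the x axis is its mean level over the 6 arrays and the y axis its difference, DMH minus VMH, both on the log2 scale. Red points (124) were higher in DMH and blue points (218) higher in VMH at an adjusted p under 0.05; the largest differences were 7.06 for Grp and -8.14 for Fezf1, and called genes with smaller differences spread over most of the range of levels.

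The differences ran from the limit of detection to small shifts in bright genes. Among genes higher in DMH, 22 differed by 4 or more, 18 by 3 to 4, 37 by 2 to 3, 46 by 1 to 2 and 1 by less than 1. The 218 genes higher in VMH held 20, 23, 65, 110 and 0 in the same bands, so a larger number of moderate differences lay on the VMH side. On all arrays of the VMH, 33 of the 124 were not well above background, and 25 of the 218 were not on all arrays of the DMH. For such genes the fold is a lower bound, set against the lowest signal well above background on each dim array, or the probe's own signal where that was higher. The p-values used the signals as measured, dim ones included.

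Technical values also differed between the nuclei. All DMH arrays were brighter than all VMH arrays, with a 75th percentile of 2107 to 3042 against 1866 to 2036. The median difference of all genes was -0.04 (quartiles -0.31 and 0.25), and for 349 genes with a level above 6 it was -0.31. DMH replicate 1 stood apart from the other DMH arrays, with the brightest signal and the lowest array weight (0.529). The part of these values in the results was not tested. By their position numbers, DMH replicates 1 and 2 and VMH replicate 3 lay in slide row 1. DMH replicate 3 and VMH replicates 1 and 2 lay in row 2, so the nuclei were not balanced over rows. With the row as a block, 62 of the 124 genes higher in DMH and 103 of the 218 higher in VMH stayed called.

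Leaving out any 1 DMH or VMH array lowered both counts by over 1.5 times. Without DMH replicate 1, 2 or 3, the genes higher in DMH numbered 57, 47 and 48, and those higher in VMH 118, 82 and 96. Without VMH replicate 1, 2 or 3, the counts were 52, 53 and 63 towards DMH and 57, 68 and 63 towards VMH. In every alternative that tested them (up to 21), 21 genes stayed called as higher in DMH: A630038E17Rik, Asb4, Bsx, Cck, Dlx1, Dlx1os, Dlx2, Ebf3, Foxp2, Gad2, Gal, Gch1, Gpr179, Grp, Insm1, Ppp1r17, Prox1, Skor1, Tmem176a, Tmem176b and Trh. Likewise 25 stayed higher in VMH, among them Acvr1c, Adcyap1, C1ql2, Cbln1, Ccnjl, Cdh4, Fezf1, Gda, H2-Q1, Htr1b, Kcna1, Nmbr, Nrgn, Qrfpr, Rxrg and Tcerg1l. Every other called gene lost its call in at least 1 alternative. Of the 119 called genes followed by name, 72 lost it when 1 DMH or VMH array was left out. Weak calls are not marked each time below. For example, those of Camkv, Napb and Unc5a held in 7 of 21 alternatives, V1rd19 in 7 of 20, Spock1 in 8 of 21 and Hipk4 in 8 of 20.

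The labels of the nuclei were set against 4 marker genes, which were chosen with earlier results of these arrays known, so their values are a description. Grp encodes the precursor of gastrin-releasing peptide and was at 1.61, 1.79 and 1.32 in DMH replicates 1, 2 and 3 and at -6.19, -4.17 and -6.10 in VMH, where no array was well above background. The fold for Grp was at least 57.3 (adjusted p = 0.00173). Skor1, a transcriptional corepressor, was at 1.39, 0.29 and 1.35 in DMH and between -6.19 and -3.90 in VMH, at least 36.9-fold apart (adjusted p = 0.00477). Fezf1, a zinc finger repressor of early forebrain patterning, was at 1.36, 1.63 and 1.76 in VMH and between -6.87 and -6.34 in DMH, where no array was well above background. The fold for Fezf1 was at least 88.1 (adjusted p = 8.68e-06). Qrfpr, the receptor of the RF-amide peptide QRFP, was at 1.06, 0.74 and 1.17 in VMH and at -4.84, -3.62 and -4.59 in DMH, where 1 of 3 arrays was well above background, at least 39.0-fold apart (adjusted p = 0.00345). The groups overlapped for none of the 4, but each passed the filter on dim probes through the nucleus where it is high. In mouse build mm9 the probe of Skor1 lies at chr9:62985992-62986051, that of Fezf1 at chr6:23195360-23195419 and that of Qrfpr at chr3:36078369-36078428, with their place in the transcript not analysed here.

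Nkx2-1, the gene of the driver, was at 1.26, 1.12 and 1.25 in DMH and at 1.09, 1.19 and 1.07 in VMH. The difference of Nkx2-1 was 0.09 ± 0.17 (SE; 95% interval within 0.5 of 0, adjusted p = 0.853), and the ranges overlapped. Nr5a1, the nuclear receptor that specifies VMH neurons, was at 3.25, 3.00 and 3.34 in VMH and at 1.79, 1.91 and 1.95 in DMH, a 2.48-fold difference (adjusted p = 0.0196). The groups did not overlap, but all 3 DMH arrays were well above background for this VMH gene.

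Over the marker lists, which were drawn up with earlier results of these arrays known, 13 of 20 DMH markers tested were higher in DMH and 0 lower, with a median difference of 3.01 against -0.04 for all genes. The lists include Grp, Skor1, Fezf1 and Qrfpr. On all VMH arrays, 13 of the 20 DMH markers were well above background. The others, all of them called, passed the filter through DMH alone, so the count and median are a description. Of 21 VMH markers tested, 10 were higher in VMH and 1 in DMH, with a median of -1.31. The exception was Foxp2, a forkhead factor of projection neurons, at 0.13, 0.62 and 0.58 in DMH and at -6.31, -6.17 and -3.72 in VMH, at least 22.6-fold apart (adjusted p = 0.00979). Several VMH markers did not pass: Esr1, the estrogen receptor, differed by -0.46 ± 0.24 (adjusted p = 0.452), Bdnf by -0.94 ± 0.46 (adjusted p = 0.425) and Fam19a1 by -2.28 ± 0.51 (adjusted p = 0.097). Of the DMH markers, Npvf differed by 1.07 ± 0.44 (adjusted p = 0.348) and Otp by 1.01 ± 0.26 (adjusted p = 0.136).

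**Figure D2:**
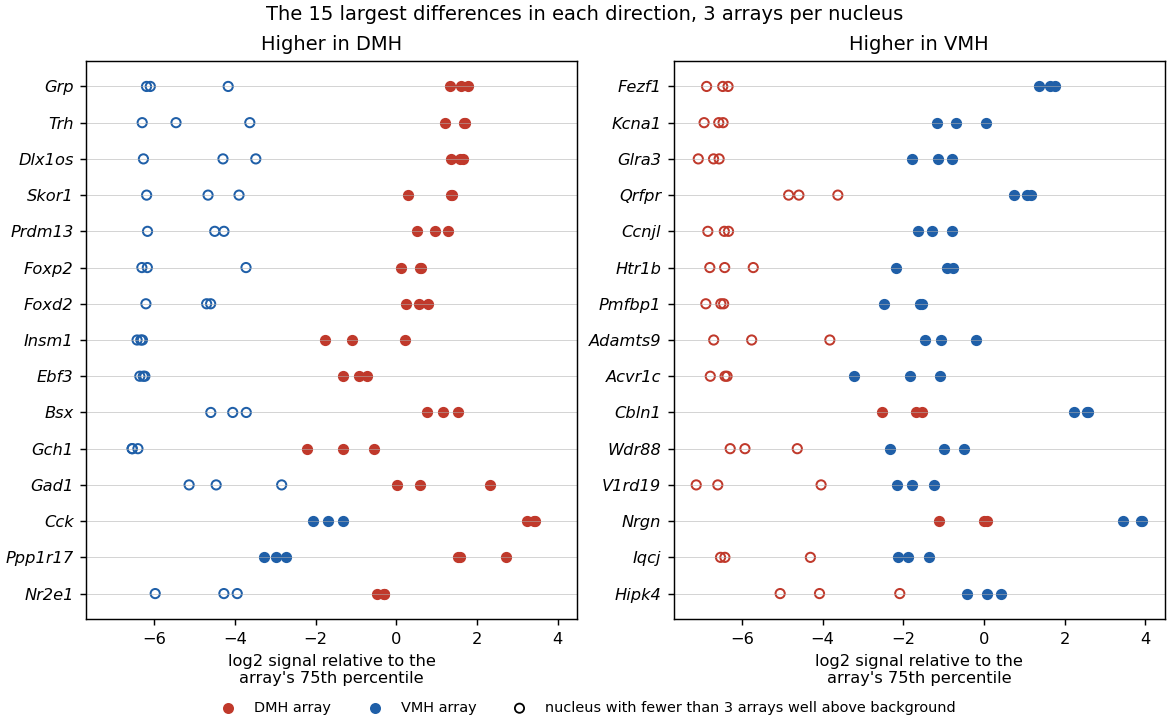
Level of the 15 named genes with the largest difference in each direction on each of the 3 DMH (red) and 3 VMH (blue) arrays, as log2 signal relative to the array's 75th percentile. Open circles mark a nucleus with fewer than 3 arrays well above background. The 30 genes were chosen among called genes whose red and blue points do not overlap, so the lack of overlap follows from the choice. In each panel 13 of 15 genes have open circles, for VMH on the left and for DMH on the right.

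Homeobox factors were called mainly on the DMH side. Of 52 homeobox genes tested outside the Dlx family, 5 were higher in DMH and 1 in VMH (median 0.15). Bsx, a homeobox factor of feeding circuits, was at 0.76, 1.16 and 1.52 in DMH and at -4.60, -4.05 and -3.72 in VMH, at least 36.2-fold apart with 1 VMH array above background (adjusted p = 0.000873). Prox1, a homeobox factor of neuronal maturation, was 17.6-fold higher in DMH (adjusted p = 0.000873), at 1.41 to 1.67 against -3.09 to -2.39. Hmx2 and Hmx3, neighbouring homeobox genes of the hypothalamus, were 5.62-fold and 2.53-fold higher (adjusted p = 0.0196 and 0.0183), and Pbx3, a cofactor of Hox proteins, 2.65-fold (adjusted p = 0.0341). Zfhx3, a large homeobox factor linked to the circadian clock, ran the other way, 3.19-fold higher in VMH (adjusted p = 0.0362).

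Factors of other DNA-binding families were called in both nuclei. In the list of bHLH, Sox, Ebf, Prdm and zinc finger factors, 4 of 52 were higher in DMH and 2 in VMH (median 0.14). The 4 were Skor1, described above, Ebf3, Prdm13 and Tcf4. Ebf3, an early B cell factor, was at -1.31, -0.93 and -0.73 in DMH and between -6.36 and -6.23 in VMH, at least 9.72-fold higher (adjusted p = 8.33e-05). Prdm13, which steers the choice between GABAergic and glutamatergic fates in spinal cord, was at 1.29, 0.51 and 0.95 against -4.50, -6.17 and -4.27, at least 35.6-fold (adjusted p = 0.0131). Tcf4, a broadly used E protein that binds E-boxes, was at 2.41, 2.78 and 2.97 in DMH and at -0.99, -1.56 and 0.27 in VMH, an 11.1-fold difference with no overlap (adjusted p = 0.0131). Outside the list, Insm1, a zinc finger factor of neuroendocrine differentiation, was at 0.21, -1.09 and -1.76 in DMH and between -6.42 and -6.29 in VMH, at least 10.5-fold higher (adjusted p = 0.00278). Towards VMH stood Fezf1 and Sox14, an SRY-box factor, which was at 0.65, 0.81 and 1.02 in VMH and at -1.80, -1.51 and -1.16 in DMH (4.98-fold, adjusted p = 0.00515).

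The forkhead list had 2 of 21 members higher in DMH and 0 in VMH. Beside Foxp2 this was Foxd2, at 0.77, 0.55 and 0.23 in DMH and at -4.70, -6.21 and -4.60 in VMH, at least 27.6-fold (adjusted p = 0.0197). Among 35 nuclear receptors tested, Nr2e1, the tailless orphan receptor, and Rorb were higher in DMH, and Rxrg, Thrb and Nr5a1 in VMH. Nr2e1 was at -0.31, -0.47 and -0.30 in DMH with no VMH array well above background (at least 13.4-fold, adjusted p = 0.0207). Rxrg, a retinoid X receptor, was at 3.49, 3.33 and 3.83 in VMH and at 1.04 ± 0.07 (SD, n = 3) in DMH, 5.70-fold apart (adjusted p = 0.00278), and a further probe differed by -0.96 (unadjusted p = 0.00179). Thrb, a thyroid hormone receptor, was 3.93-fold higher in VMH (adjusted p = 0.031). Rorb, an orphan receptor that acts on clock genes, was 4.56-fold higher in DMH by its brightest probe (adjusted p = 0.0131), while a further probe differed by -0.05 (unadjusted p = 0.821).

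Promoter windows are shown because several of the factors measured have known short binding cores. The genes were at the head of the list, moved with a neighbour or, for Slc32a1 and Tac1, were taken because their windows hold a match. The windows are the 250 bases before the RefSeq start (GRCm38.p6), written in the direction of transcription, with any match to a searched motif in capitals. Ebf3 and Fezf1 had the smallest adjusted p among named genes in each direction, and Dlx1 and Dlx2 lie side by side and were both higher in DMH. The matches of Slc32a1 and Tac1 follow from how these genes were chosen and show nothing about called genes.
Ebf3, chr7:137314446-137314695, minus strand: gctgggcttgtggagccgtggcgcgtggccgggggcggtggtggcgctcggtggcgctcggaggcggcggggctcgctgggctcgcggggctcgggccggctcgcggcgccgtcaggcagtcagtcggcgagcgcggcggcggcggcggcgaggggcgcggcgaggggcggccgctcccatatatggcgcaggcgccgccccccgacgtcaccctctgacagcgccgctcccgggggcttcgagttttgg
Dlx1, chr2:71529195-71529444, plus strand: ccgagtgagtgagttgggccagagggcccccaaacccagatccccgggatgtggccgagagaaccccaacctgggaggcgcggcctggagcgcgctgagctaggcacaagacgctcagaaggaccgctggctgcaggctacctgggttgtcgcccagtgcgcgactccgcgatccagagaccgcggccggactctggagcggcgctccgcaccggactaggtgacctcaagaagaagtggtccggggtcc
Dlx2, chr2:71546755-71547004, minus strand: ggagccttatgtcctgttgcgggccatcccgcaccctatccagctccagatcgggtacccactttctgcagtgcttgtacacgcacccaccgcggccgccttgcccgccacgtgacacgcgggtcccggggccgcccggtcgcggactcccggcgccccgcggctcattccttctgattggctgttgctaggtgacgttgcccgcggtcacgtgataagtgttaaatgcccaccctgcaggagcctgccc
Slc32a1, chr2:158610508-158610757, plus strand: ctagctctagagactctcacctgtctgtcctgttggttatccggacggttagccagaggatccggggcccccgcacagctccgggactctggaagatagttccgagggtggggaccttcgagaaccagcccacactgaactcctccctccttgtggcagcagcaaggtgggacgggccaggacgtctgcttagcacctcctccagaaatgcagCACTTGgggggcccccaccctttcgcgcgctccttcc
Fezf1, chr6:23248265-23248514, minus strand: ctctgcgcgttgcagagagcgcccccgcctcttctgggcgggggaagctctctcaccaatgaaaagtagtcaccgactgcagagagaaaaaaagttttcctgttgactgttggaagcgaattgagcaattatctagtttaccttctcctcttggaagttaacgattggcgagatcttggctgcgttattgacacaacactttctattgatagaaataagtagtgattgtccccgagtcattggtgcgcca
Tac1, chr6:7554811-7555060, plus strand: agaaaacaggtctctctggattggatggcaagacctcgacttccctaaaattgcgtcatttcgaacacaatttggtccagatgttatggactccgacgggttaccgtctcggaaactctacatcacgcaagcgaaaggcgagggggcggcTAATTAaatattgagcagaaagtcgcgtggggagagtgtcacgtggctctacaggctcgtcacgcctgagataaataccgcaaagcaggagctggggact

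Both strands were searched for TAATTA (a homeodomain core of the Dlx type, its own reverse complement), AAGGTCA (the NR5A core), CAAGTG (the core of Nkx2-1) and CAGCTG (an E-box bound by E proteins such as Tcf4, also its own reverse complement). The window of Slc32a1 holds CACTTG, the reverse complement of CAAGTG, starting 37 bases before the start, and that of Tac1 holds TAATTA 100 bases before it. Matches do not overlap in these windows, and the other 4 windows hold none of these letters. Among 32851 windows of all genes, TAATTA was in 4.84%, AAGGTCA in 4.08%, CAAGTG in 11.6% and CAGCTG in 13%. In 15706 windows of the genes tested these shares were 3.29%, 3.31%, 10.3% and 12.6%. In 101 windows of genes higher in DMH the shares were 4.95%, 0.99%, 14.9% and 16.8%, and in 170 windows of genes higher in VMH they were 4.71%, 2.35%, 8.24% and 20%. These shares describe letters in short windows and were not tested.

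The genes that define GABAergic neurons were called on the DMH side alone. Of 13 GABAergic genes tested, 7 were higher in DMH and 0 in VMH, with a median difference of 2.36. On all VMH arrays, 11 of the 13 were well above background, and the others passed the filter through DMH alone. Gad1, one of the enzymes that make GABA, was at 2.33, 0.58 and 0.02 in DMH and at -5.13, -2.84 and -4.46 in VMH, where 1 array was above background, at least 28.3-fold apart (adjusted p = 0.0186). Gad2, its sister enzyme, was at 2.36, 1.43 and 1.72 in DMH and at -1.76, -1.87 and -2.37 in VMH, 14.3-fold (adjusted p = 0.00233). Slc32a1, the vesicular GABA transporter, was at 1.52, 2.10 and 1.46 in DMH and at -1.28, 0.18 and -0.91 in VMH, 5.14-fold (adjusted p = 0.0403). All 3 genes separated the nuclei without overlap, and DMH replicate 1 was the highest DMH array for Gad1 and Gad2 but not for Slc32a1.

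The Dlx homeobox genes drive GABAergic fate in the forebrain, and 3 of the 4 on the list were higher in DMH. Dlx1 was at 1.94, 1.53 and 1.64 in DMH and at -2.55, -2.25 and -1.40 in VMH (13.7-fold, adjusted p = 0.00278). Dlx2 was 6.38-fold and Dlx6 7.36-fold higher (adjusted p = 0.00278 and 0.0448). Dlx1os, the transcript antisense to Dlx1, was at 1.59, 1.36 and 1.65 in DMH and at -4.30, -6.27 and -3.48 in VMH, at least 45.1-fold (adjusted p = 0.00496). Dlx6as2, antisense in the Dlx6 locus, was 3.22-fold higher (adjusted p = 0.0479), whereas Dlx6os1, the antisense transcript of that locus on the list, differed by 0.17 (adjusted p = 0.883). By contrast Dlx5 differed by 0.35 ± 0.27 (adjusted p = 0.606), Dlx3, outside the list, by -0.78 (adjusted p = 0.493), and Abat, an enzyme of GABA breakdown, by 0.50 ± 0.21 (adjusted p = 0.349).

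Of 9 glutamatergic genes tested, 0 were called by limma in either direction (1 had an unadjusted p under 0.05), and the median difference was 0.02. Slc17a6, the vesicular glutamate transporter of hypothalamic neurons, was at 0.87, 0.14 and -0.12 in DMH and at 1.05, 0.72 and 0.43 in VMH, overlapping ranges with a difference of -0.43 ± 0.29 (adjusted p = 0.56). The interval of Slc1a1, a neuronal glutamate transporter, lay within 0.5 of 0 (-0.06 ± 0.19). Tcf7l2, a factor of Wnt signalling counted with the glutamatergic genes, differed by 0.93 ± 0.28 (adjusted p = 0.191).

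**Figure D3:**
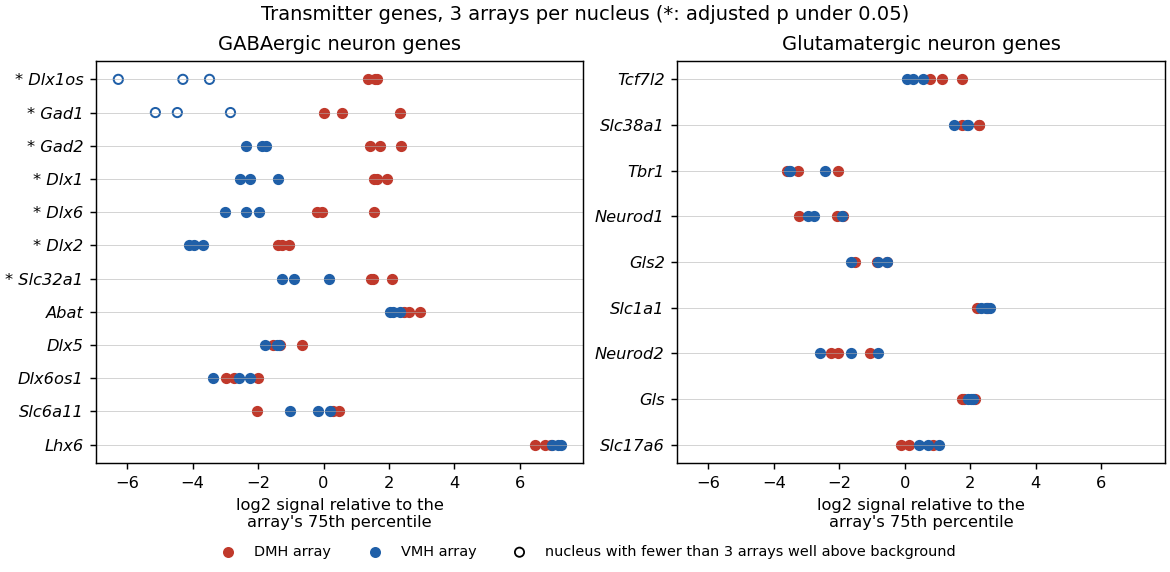
Levels of 12 of the 13 GABAergic genes tested (left) and 9 glutamatergic genes (right) on each of 3 DMH (red) and 3 VMH (blue) arrays, as log2 signal relative to the array's 75th percentile; a star marks an adjusted p under 0.05. The 7 starred genes lie in the upper part of the left panel, with all red points to the right of all blue points. In the right panel no gene is starred, and red and blue ranges overlap for every gene but Tcf7l2, whose red points all lie to the right.

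Of 13 monoamine genes tested, 2 were higher in DMH and 0 in VMH. Gch1, which makes the cofactor of the monoamine-producing hydroxylases, was at -0.56, -1.32 and -2.22 in DMH while no VMH array was well above background, at least 7.49-fold (adjusted p = 0.00502). Th, the rate-limiting enzyme of dopamine synthesis, was at 3.42, 3.70 and 3.99 in DMH and at 1.86, 2.54 and 2.08 in VMH, 2.92-fold (adjusted p = 0.0355). Spr, which completes the same cofactor, was at 2.73 to 2.80 in DMH and 2.55 to 2.99 in VMH, with an interval within 0.5 of 0.

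Of 49 neuropeptide precursors and cerebellin-type ligands tested, 5 were higher in DMH, 3 were higher in VMH, and the median difference was 0.01. Trh encodes the precursor of thyrotropin-releasing hormone and was at 1.67, 1.71 and 1.22 in DMH and at -3.63, -6.30 and -5.46 in VMH, at least 47.5-fold with 1 VMH array above background (adjusted p = 0.00477). Cck, the precursor of cholecystokinin, was at 3.25, 3.41 and 3.44 in DMH and at -1.71, -1.32 and -2.07 in VMH, 33.4-fold (adjusted p = 0.00334). Gal, the precursor of galanin, was at 4.06, 4.52 and 4.32 against 1.01, 0.69 and 0.62, 11.6-fold (adjusted p = 0.000755). Unlike Grp and Trh, both Cck and Gal were well above background on all VMH arrays. Pdyn, the precursor of dynorphin, showed the smallest called difference of the group, 2.26-fold (adjusted p = 0.0341).

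Adcyap1, the precursor of the peptide PACAP and a classic product of VMH neurons, had a level of 3.91 ± 0.44 (SD, n = 3) in VMH and of 0.34 ± 0.46 (SD, n = 3) in DMH, 11.9-fold (adjusted p = 0.00334). Tac1, the precursor of substance P, was at 3.36, 2.98 and 2.81 against 1.11, 0.07 and 0.98, 5.04-fold (adjusted p = 0.031). Cbln1, a secreted synaptic organiser, was at 2.57, 2.24 and 2.54 in VMH and at -1.68, -1.54 and -2.53 in DMH, 20.6-fold (adjusted p = 0.00169). None of the 3 genes overlapped between the nuclei. Pomc, the arcuate melanocortin precursor, differed by -0.01 ± 0.40 (adjusted p = 0.993), with 0.40 to 0.83 in DMH and -0.23 to 1.47 in VMH. Hcrt, the orexin precursor made in neurons lateral to the DMH, was at 0.10, 0.53 and 0.35 in DMH and at -2.68, -1.22 and -1.17 in VMH (adjusted p = 0.0658), and Sst, the precursor of somatostatin, differed by 1.16 ± 0.23 (adjusted p = 0.0695). Pmch, the melanin-concentrating hormone precursor, varied from -3.03 to 1.59 within DMH and differed by 2.33 ± 1.44 (adjusted p = 0.52).

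Of 49 neuropeptide receptors tested, 6 were higher in VMH and 2 in DMH, and at an unadjusted p under 0.05 there were 14 and 12. Their median difference was -0.27, or -0.18 after quantile normalization. Nmbr, the receptor of neuromedin B, was at -0.22, 0.51 and 0.61 in VMH and at -3.44, -3.01 and -3.87 in DMH, 13.3-fold (adjusted p = 0.0045). Mc3r, a melanocortin receptor of energy balance, was at 0.81, 0.40 and 0.67 against -1.66, -1.58 and -1.57, 4.70-fold (adjusted p = 0.00631). Sstr3, a somatostatin receptor, was 4.94-fold higher in VMH (adjusted p = 0.026), Hcrtr1, an orexin receptor, 3.10-fold (adjusted p = 0.0201) and Oxtr, the oxytocin receptor, 2.71-fold (adjusted p = 0.0445). With Qrfpr these make up the 6, and none of them overlapped between the nuclei. Cckbr, a cholecystokinin receptor, was at 0.33, -0.29 and 0.24 in VMH and at -2.45, -2.79 and -1.48 in DMH but did not pass (adjusted p = 0.1).

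Towards DMH, Trhr, the receptor of thyrotropin-releasing hormone, was at 1.16, 0.59 and 0.76 in DMH and at -0.98, -1.03 and -1.82 in VMH, 4.33-fold (adjusted p = 0.018). Ednra, an endothelin receptor, was at -3.76, -3.13 and -4.25 in DMH with no VMH array well above background, at least 1.47-fold (adjusted p = 0.0437), and its call held in 6 of 20 alternatives. Agtr1a, an angiotensin receptor outside the naming rule and chosen after its values were seen, was likewise not well above background in VMH, a DMH excess of at least 1.93-fold (adjusted p = 0.031).

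Set beside each other, Trh and Trhr were the only ligand and receptor of the pairs examined that were both called, and both were higher in DMH. The bombesin family split: Grp was higher in DMH, its receptor Grpr differed by -0.15 ± 0.30 (adjusted p = 0.872), the related ligand Nmb differed by -0.83 ± 0.29 (adjusted p = 0.264), and Nmbr was higher in VMH. For PACAP, Adcyap1 was higher in VMH while its receptor Adcyap1r1 differed by 0.40 ± 0.30 (adjusted p = 0.588). Qrfpr was higher in VMH and its ligand Qrfp differed by 1.62 ± 0.38 (adjusted p = 0.104). Galr3, a galanin receptor, differed by -0.27 ± 0.38 (adjusted p = 0.802) and Oprk1, the dynorphin receptor, by 1.37 ± 0.39 (adjusted p = 0.165).

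**Figure D4:**
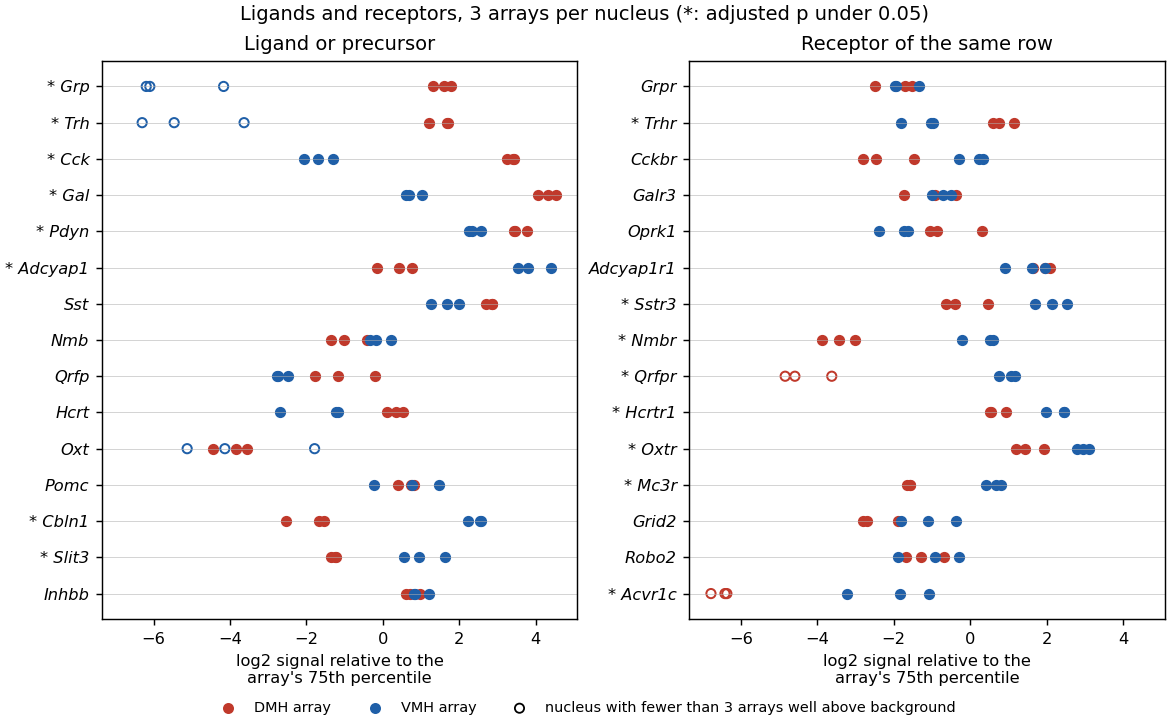
Levels of 15 ligands or precursors (left) and of a receptor of each (right, same row) on each of 3 DMH (red) and 3 VMH (blue) arrays, as log2 signal relative to the array's 75th percentile; a star marks an adjusted p under 0.05 and open circles a nucleus with fewer than 3 arrays well above background. Red points lie to the right for Grp, Trh, Cck, Gal and Pdyn among the ligands, and blue points lie to the right for Sstr3, Nmbr, Qrfpr, Hcrtr1, Oxtr, Mc3r and Acvr1c among the receptors.

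Of 44 receptors of monoamines, acetylcholine, histamine and cannabinoids tested, 5 were higher in VMH and 0 in DMH, with a median of -0.42. At an unadjusted p under 0.05, 13 lay towards VMH and 3 towards DMH. Htr1b, an inhibitory serotonin receptor, was at -2.17, -0.93 and -0.77 in VMH with no DMH array well above background, at least 12.1-fold (adjusted p = 0.00278). Htr1a, a related receptor, was at -0.85, -1.37 and -0.71 in VMH and at -3.33, -4.04 and -3.23 in DMH, 5.87-fold (adjusted p = 0.00899). Htr2a, an excitatory serotonin receptor, was 3.83-fold higher (adjusted p = 0.0123), and Chrna9, a nicotinic subunit, 3.24-fold (adjusted p = 0.0236), with a further probe of Chrna9 at -0.37 (unadjusted p = 0.18). Chrm1, a muscarinic receptor, was at -2.63, -2.40 and -1.64 in VMH with no DMH array well above background, at least 6.26-fold (adjusted p = 0.0298).

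Of 41 voltage-gated potassium channel subunits tested, 3 were higher in VMH and 0 in DMH, with 9 and 1 at an unadjusted p under 0.05 and a median of -0.27. Kcna1, a subunit of the axonal delayed rectifier, was at -0.70, -1.17 and 0.05 in VMH and between -6.93 and -6.46 in DMH, at least 19.4-fold with no DMH array above background (adjusted p = 0.000458). Kcnh3, of the ether-a-go-go family, was at 1.96, 1.80 and 2.22 against -0.44, -0.19 and 0.12, 4.48-fold (adjusted p = 0.00496), and Kcnab2, a beta subunit, was 3.95-fold higher (adjusted p = 0.0338). Among 25 other potassium channels, 2 were called, with 6 towards VMH and 3 towards DMH at an unadjusted p under 0.05. Kcnmb4, a subunit of the large calcium-activated channel, was 5.83-fold and Kcnk4, a mechanosensitive leak channel, 3.78-fold higher in VMH (adjusted p = 0.0162 and 0.0186). Among 34 voltage-gated calcium, sodium and HCN channels limma called 0, with 1 towards DMH and 4 towards VMH at an unadjusted p under 0.05 and a median of -0.28. Cacna1i, a T-type calcium channel, differed by -0.74 ± 0.21 (adjusted p = 0.164).

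Receptors for fast transmitters differed in single members. Glra3, a glycine receptor subunit, was at -1.79, -0.78 and -1.13 in VMH with no DMH array well above background, at least 12.5-fold (adjusted p = 0.0403), with its call held in 9 of 20 alternatives. Gabre and Gabrg3, GABA-A subunits, were 4.59-fold and 2.60-fold higher in DMH (adjusted p = 0.0119 and 0.031). Kctd12 and Kctd16, auxiliary subunits of GABA-B receptors, were both higher in DMH: Kctd12 was at 1.40, 0.12 and 0.35 against -2.17, -2.70 and -2.34 (8.13-fold, adjusted p = 0.00858), and Kctd16, with no VMH array well above background, differed by at least 1.36-fold (adjusted p = 0.0112). Of 28 ionotropic glutamate receptor genes, Cnih3, an AMPA receptor chaperone, was 3.83-fold higher in VMH (adjusted p = 0.0291) and 0 were higher in DMH (median -0.34).

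Other receptors included Gpr179, an orphan receptor best known from the retina, at -0.45, -0.46 and -0.57 in DMH with no VMH array well above background (at least 13.7-fold, adjusted p = 0.0012). Gpr50, an orphan relative of the melatonin receptors, was 2.61-fold higher in DMH (adjusted p = 0.0207) and Gpr153 2.47-fold (adjusted p = 0.0291). Towards VMH, Gpr149 was at -2.57, -1.86 and -1.81, with 1 DMH array well above background (6.01-fold by the signals as measured, adjusted p = 0.00672), and the latrophilin Lphn3 was 3.69-fold higher (adjusted p = 0.0164). Acvr1c, an activin receptor, was at -1.09, -3.22 and -1.83 in VMH with no DMH array well above background, at least 7.14-fold (adjusted p = 0.00899), whereas the activin subunit Inhbb differed by -0.19 ± 0.23 (adjusted p = 0.756). Ngfr, the low-affinity neurotrophin receptor, was at 0.77, 1.35 and 1.31 in DMH and at -4.08, -2.34 and -1.90 in VMH, 15.1-fold (adjusted p = 0.018). Prlr, the prolactin receptor, was at 1.19, 1.22 and 1.06 in VMH and at -0.71, -0.38 and -0.79 in DMH, 3.44-fold (adjusted p = 0.00623).

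Genes of axon guidance, cell adhesion and the matrix were called towards VMH. Of 64 axon guidance genes tested, 5 were higher in VMH and 0 in DMH, of 61 cadherins and contactins 4 and 0, and of 57 matrix genes 6 and 0, with medians of -0.17, -0.31 and -0.11. At an unadjusted p under 0.05 the members towards VMH and DMH numbered 13 and 7, 16 and 6, and 13 and 4. All genes tested also leaned towards VMH, by 14591 to 12340 in sign. Slit3, a repellent ligand, was at 1.63, 0.54 and 0.96 in VMH and at -1.34, -1.22 and -1.26 in DMH (4.98-fold, adjusted p = 0.0113), while its receptor Robo2 differed by -0.19 ± 0.43 (adjusted p = 0.886). Efna3, an ephrin, was 3.97-fold higher (adjusted p = 0.00566), the semaphorins Sema3f and Sema5a 3.21-fold and 2.60-fold (adjusted p = 0.0448 and 0.0291), and Unc5a, a netrin receptor, 2.39-fold (adjusted p = 0.0437).

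Cdh4, a classical cadherin, was at 2.54, 2.56 and 2.75 in VMH and at -1.17, 0.02 and -0.35 in DMH, 8.67-fold (adjusted p = 0.00464). Cntn4, a contactin, was 3.63-fold higher by its brightest probe (adjusted p = 0.00829), with further probes between -1.59 and 0.11. Pcdh7, a protocadherin, was 3.22-fold and Cntnap5b, a contactin-associated protein with 2 DMH arrays well above background, 4.52-fold higher (adjusted p = 0.029 and 0.031), but a further probe of Cntnap5b differed by -0.01 (unadjusted p = 0.951). In the matrix group, Lama1, a laminin chain, was at -0.52, -0.60 and -0.42 in VMH and at -2.52, -2.59 and -2.81 in DMH, 4.36-fold (adjusted p = 0.00411). Adamts9, a metalloprotease, differed by at least 13.6-fold (adjusted p = 0.0297), Adamts18 4.02-fold with 2 DMH arrays well above background (adjusted p = 0.0254), Spock3 3.27-fold (adjusted p = 0.00785) and Mmp17 3.05-fold (adjusted p = 0.0355). Spock1 was 3.20-fold higher (adjusted p = 0.0425), but a further probe differed by 0.52 (unadjusted p = 0.263).

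Synaptic organisers were called in both directions. C1ql2, a C1q-like ligand of synapses, was at 1.11 ± 0.39 (SD, n = 3) in VMH and at -2.22, -1.78 and -1.79 in DMH, 8.24-fold (adjusted p = 0.00281). Flrt3, a leucine-rich adhesion protein, was at 2.66, 2.35 and 2.49 in DMH and at 0.52, 0.25 and 0.64 in VMH, 4.10-fold (adjusted p = 0.00442). Fam19a4, a secreted chemokine-like protein, was at 0.55, 1.21 and 1.55 in DMH and at -3.00, -4.06 and -2.15 in VMH, 18.1-fold with 2 VMH arrays well above background (adjusted p = 0.0122). In the release machinery, Syt17 and Rab3b were 4.76-fold and 2.97-fold higher in DMH (adjusted p = 0.0295 and 0.0119) and Napb 2.00-fold higher in VMH (adjusted p = 0.0355), out of 61 tested. Syt1, the main calcium sensor of release, was at 2.98, 3.00 and 3.01 in DMH and at 3.18, 3.01 and 2.95 in VMH, with an interval within 0.5 of 0.

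Calcium and cyclic nucleotide signalling differed between the nuclei in single genes. Of 37 calcium-binding genes tested, 5 were higher in VMH and 1 in DMH, with 14 and 4 at an unadjusted p under 0.05 and a median of -0.37. Nrgn, a calmodulin-binding protein of dendrites, was at 3.43, 3.89 and 3.92 in VMH and at -1.11, 0.08 and 0.00 in DMH, 17.1-fold (adjusted p = 0.0033). Vsnl1, Cabp1 and Calb2, calcium sensors and buffers, were 4.26-fold, 2.93-fold and 2.91-fold higher in VMH (adjusted p = 0.0437, 0.0228 and 0.0218), and Camkv, a kinase-like protein, 2.03-fold (adjusted p = 0.046). Necab2, a neuronal calcium-binding protein, was 2.39-fold higher in DMH (adjusted p = 0.0369). Ppp1r17, an inhibitor of protein phosphatases that is a substrate of cGMP-dependent kinase, was at 2.71, 1.52 and 1.59 in DMH and at -2.97, -3.27 and -2.72 in VMH, 30.5-fold (adjusted p = 0.00153). Nos1, which makes nitric oxide upstream of cGMP, was 2.71-fold higher in VMH (adjusted p = 0.0403), with its call held in 6 of 21 alternatives. Gda, guanine deaminase, was at 2.46, 2.34 and 2.42 in VMH and at -0.22, -0.83 and -0.59 in DMH, 7.76-fold (adjusted p = 0.0045).

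Nefm and Nefl, neurofilament subunits of large axons, were 5.02-fold and 4.95-fold higher in VMH (adjusted p = 0.0284 and 0.0139), the only 2 of 23 pan-neuronal genes that were called. Nefl was at 1.82, 1.29 and 1.45 in VMH and at -0.27, -1.21 and -0.89 in DMH. The other pan-neuronal genes gave differences from -1.23 for Nefh to 0.26 for Elavl2, and the list median was -0.32 (-0.14 after quantile normalization).

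Secreted growth and patterning signals differed in few members. Of 36 Wnt pathway genes tested, Sfrp4, a secreted Wnt antagonist, was at -0.58, -1.01 and -1.16 in DMH and at -2.83, -2.57 and -2.52 in VMH, 3.31-fold (adjusted p = 0.0292), while Dkk3, of the Dickkopf family, was 4.35-fold higher in VMH (adjusted p = 0.00703). Of 51 genes of neurotrophin, FGF, EGF and IGF signalling, Ngfr was higher in DMH and Fgf18, a fibroblast growth factor, in VMH, at 1.37, 0.14 and 1.32 against -1.48, -0.83 and -1.36 (4.49-fold, adjusted p = 0.0355). Its receptor Fgfr3 differed by 0.05 ± 0.23 (adjusted p = 0.945). Rgs14, a brake on G protein signalling, was 4.73-fold higher in VMH (adjusted p = 0.018), the only called gene of 38 G protein and RGS genes.

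Acvr1c was the only called gene among 30 tested genes of leptin, insulin, ghrelin and nutrient sensing, with a list median of -0.13. Lepr, the leptin receptor, was at -2.85, -3.42 and -2.92 in DMH and at -2.63, -2.74 and -1.07 in VMH (-0.92 ± 0.51, adjusted p = 0.476). Irs4, an insulin receptor substrate of the hypothalamus, differed by -0.06 ± 0.34 (adjusted p = 0.955).

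The remaining genes with the largest VMH differences have few known roles in these neurons. Ccnjl, a cyclin-like gene, was at -0.78, -1.64 and -1.29 in VMH and between -6.84 and -6.33 in DMH, at least 12.5-fold with no DMH array well above background (adjusted p = 0.00588). Pmfbp1 and Wdr88 likewise had no DMH array well above background, with folds of at least 8.09 and 10.3 (adjusted p = 0.0131 and 0.0201). V1rd19, a vomeronasal receptor of a large family of similar genes, and Iqcj had 1 DMH array well above background and Hipk4, a kinase, had 2, with folds of at least 6.61 and 7.44 and a measured fold of 13.6 (adjusted p = 0.0403, 0.0363 and 0.0441).

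Called genes with differences under 2 were mostly measured in both nuclei. On the DMH side Cnga3, a cyclic nucleotide-gated channel subunit, was at 0.56, 0.60 and 0.59 in DMH and at -1.21, -1.63 and -1.10 in VMH (3.72-fold, adjusted p = 0.00582). Pbxip1, a partner of Pbx proteins, was 3.57-fold and Atf5, a stress-linked bZIP factor, 2.74-fold higher (adjusted p = 0.0119 and 0.0127). Flt3l, a cytokine, was 3.80-fold higher by its brightest probe (adjusted p = 0.0123), though a further probe differed by -0.24 (unadjusted p = 0.557). On the VMH side Camk1d, a calmodulin-dependent kinase, was at 0.35, 0.24 and 0.34 in VMH and at -1.26, -1.19 and -1.66 in DMH (3.21-fold, adjusted p = 0.00899). Again towards DMH, Hlf, a clock-controlled bZIP factor, and Qpct, which caps peptides with pyroglutamate, were 2.85-fold and 2.65-fold higher in DMH (adjusted p = 0.0372 and 0.0291). Above that limit, Asb4, an imprinted gene of hypothalamic neurons, was 6.01-fold higher in DMH (adjusted p = 0.00233).

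Called genes outside the lists and the naming rule, chosen here after their values were seen, added further members. Rbfox1, a splicing regulator of neurons, was at 5.01, 5.08 and 5.43 in VMH and at 2.07, 3.09 and 2.78 in DMH, 5.76-fold (adjusted p = 0.00816). Lynx1, a brake on nicotinic receptors, was 3.42-fold higher in VMH (adjusted p = 0.00911), and Prkcb, a protein kinase C gene, was 2.62-fold higher (adjusted p = 0.0291). Il34, a ligand of the microglial receptor Csf1r, was at 3.59, 3.48 and 3.69 in VMH and at 0.86, 1.69 and -0.45 in DMH, 7.38-fold (adjusted p = 0.0369), while Csf1r differed by -0.33 ± 0.19 (adjusted p = 0.484). Mpped2 exceeded its VMH level by at least 11.2-fold in DMH and its relative Mpped1 2.59-fold higher in VMH (adjusted p = 0.0448 and 0.0364), although a further probe of Mpped1 differed by -0.19 (unadjusted p = 0.338). Cidea, a lipid droplet protein best known from brown fat, was at 2.75, 2.38 and 2.42 in DMH and at 0.74, -0.21 and -0.52 in VMH, 5.71-fold (adjusted p = 0.0138). Pex11a, which divides peroxisomes, was 4.43-fold and Cpt2, of fatty acid oxidation, at least 4.71-fold more abundant in DMH (adjusted p = 0.0218 and 0.0364).

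Called genes that lie close together on the genome moved in 1 direction. By probe positions in mouse build mm9, 33 pairs of called genes lay within 100 kb, involving 45 genes, and both members of all 33 were higher in the same nucleus. Among them were Dlx1 with Dlx2 and Dlx1os, Hmx2 with Hmx3, Tmem176a with Tmem176b (17.0-fold and 12.1-fold higher in DMH), Nefl with Nefm, Ebf3 with AA536887, and Fezf1 with C130093G08Rik. C130093G08Rik, an unnamed transcript, was at -0.76, -0.41 and -0.49 in VMH with no DMH array well above background (15.7-fold by the signals as measured, adjusted p = 0.000626). Beside Cbln1 on chromosome 8, Gm2694 was 4.41-fold higher in VMH (adjusted p = 0.0197), and 2 intergenic transcripts there were also higher in VMH. H2-Q1, H2-Q2 and H2-Q8, genes of the major histocompatibility complex, were 8.29-fold, 6.20-fold and 2.54-fold higher in VMH, but they are near-identical copies whose probes may share signal. Overlapping transcripts of 1 locus can share signal too, so the pairs are not independent.

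**Figure D5:**
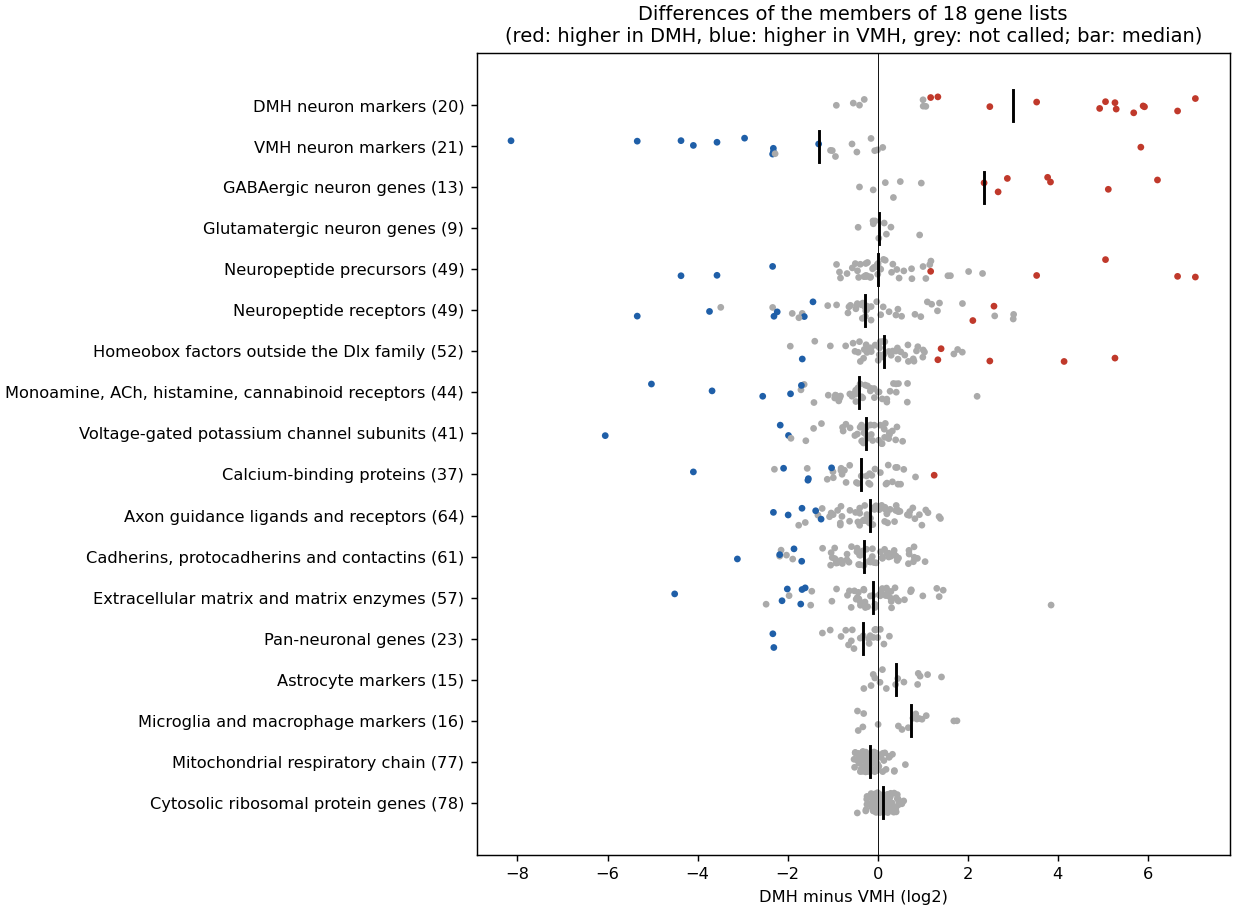
Difference, DMH minus VMH on the log2 scale, of each tested member of 18 gene lists, with the number tested in brackets; red members were higher in DMH, blue members higher in VMH and grey members not called, and the black bar is the list median. The markers of each nucleus and the GABAergic genes spread widely, the receptor, channel and adhesion lists have blue tails, and the mitochondrial and ribosomal genes stay close to 0.

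Likeness was measured by the interval of the difference. For 905 genes (3.36%) the 95% interval lay within 0.5 of 0, and for 14008 (52%) it lay within 1 of 0. The median interval reached 0.645 to either side, so most genes could not be called alike at the tighter limit with 3 arrays. Among the 905 were Hspa5 and Hsp90ab1, chaperones, at 0.02 ± 0.17 and -0.07 ± 0.16, Jak2, a kinase of leptin signalling, at 0.03 ± 0.19, Sirt6, a sirtuin, at -0.03 ± 0.20, Pde1b, a phosphodiesterase, at 0.00 ± 0.19, and Aplnr, the apelin receptor, at -0.02 ± 0.20. Ribosomal protein genes gave 14 of 78 within 0.5 of 0 and mitochondrial genes 11 of 77, and limma called 0 in either list (5 ribosomal genes towards DMH and 6 mitochondrial genes towards VMH had an unadjusted p under 0.05). The ribosomal median was 0.11 and the mitochondrial median -0.17. With quantile normalization these were 0.27 and -0.05, relative to a median of all genes of -0.01.

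Lists without a called gene included sirtuins and NAD enzymes (20 tested, 3 with an unadjusted p under 0.05) and immediate early genes (32 tested, 8 with an unadjusted p under 0.05). Nmnat1, which makes NAD in the nucleus, was at -1.32, -0.60 and -0.82 in DMH and at -2.25, -2.33 and -1.61 in VMH (adjusted p = 0.117), and Sirt5, a mitochondrial sirtuin, differed by 1.55 ± 0.53 (adjusted p = 0.255). Among immediate early genes, Egr2, a zinc finger factor, was at 1.42, 0.65 and 0.13 in DMH and at -2.67, -2.71 and -2.49 in VMH (3.36 ± 0.62, adjusted p = 0.0517), and Egr4 was at 0.18, 0.09 and -0.11 in VMH and at -1.44, -0.73 and -2.13 in DMH (adjusted p = 0.097).

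Markers of other cells were present in both nuclei. Of 15 astrocyte, 16 microglia, 15 oligodendrocyte and 16 endothelial markers tested, limma called 0, with medians of 0.40, 0.73, -0.04 and -0.24. At an unadjusted p under 0.05, 4 astrocyte and 4 microglia markers lay towards DMH, 0 oligodendrocyte markers either way, and 2 endothelial markers towards DMH with 1 towards VMH. On all 3 arrays of each nucleus, all 15 tested astrocyte markers were well above background, as were 16 microglia markers in DMH and 15 in VMH. The filter already required this in at least 1 nucleus. Over all genes, 24880 remained when all 6 arrays had to pass, against 26932 tested, so these counts say little about the markers. Summed over linear signals, astrocyte markers ranged from 71.7 to 92.8 times the 75th percentile in DMH and from 73.1 to 96.5 in VMH, and microglia markers from 150 to 192 and from 193 to 233. The microglial sums thus lay higher in VMH while the median member lay higher in DMH. Bright probes weigh most in these sums, and the 943 genes of any kind with a level of 4 to 6 had a median difference of -0.21. Oligodendrocyte sums were 19.3 to 26.1 in DMH and 24.1 to 35.3 in VMH, and endothelial sums 8.31 to 9.70 and 9.54 to 10.1. Gja1 and Sox9, defining astrocyte genes, P2ry12, of microglia, and Pdgfrb, of pericytes, were not well above background on all arrays of either nucleus. For tanycytes and ependymal cells, Gpr50 was higher in DMH and Crym, a thyroid hormone-binding protein, 3.55-fold higher in VMH (adjusted p = 0.0429), with sums of 5.09 to 6.75 and 6.44 to 7.27. The part of these cells in the differences above was not tested.

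Markers of neighbouring nuclei were also examined. Of 19 arcuate markers tested, Th was higher in DMH and Mc3r and Prlr in VMH, with sums of 27.9 to 35.4 in DMH and 22 to 25 in VMH. Of 9 markers of the paraventricular and suprachiasmatic nuclei, Trh and Rorb were higher in DMH and 0 in VMH, with sums of 20.4 to 28.6 against 7.32 to 9.80. Such sums weigh bright probes most, here that of Rorb, with a mean level of 4.09 in DMH. A further probe of Rorb differed by -0.05 (unadjusted p = 0.821), and the list median was 0.16. Of 8 lateral hypothalamic, tuberomammillary and premammillary markers, Tac1 was higher in VMH, with sums of 6.31 to 11.1 in DMH and 12.4 to 14.8 in VMH. Tac1, also on the VMH marker list, weighed most in the VMH sum, with a mean level of 3.05 there. The lateral hypothalamic peptides Hcrt and Pmch went the other way, by 2.02 and 2.33, without being called (adjusted p = 0.0658 and 0.52). By sign, 4 members lay towards DMH and 4 towards VMH. These lists share genes with the peptide lists, and a part of tissue beyond each border in the differences was not tested.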

How the data were processed

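Expression was measured on 1-colour Agilent arrays (Cy5), 3 of DMH, 3 of VMH and 2 of Arc, on 1 slide read in 1 scan. The values are spot intensities, from which Agilent Feature Extraction 11.5.1.1 had removed background and spatial trend, deposited as processed signals, per the file headers. Flags for spots above background come from the same deposited files. The authors' values for the series as a whole run in constant steps and were not used.

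Log2 of the signal minus each array's 75th percentile over 59305 non-control spots was computed here. Probes well above background on all 3 arrays of at least 1 nucleus were kept (40562 of 55681). The brightest probe stood for each gene, giving 26932 genes, of which 15177 have symbols, 7566 only accessions or clone names and 4189 are intergenic transcripts. Of these, 16041 match a RefSeq symbol (GRCm38.p6). Well-above-background shares were 72.5% to 78.7% per array, and the number of arrays limits the precision.

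Group means over the 8 arrays were estimated with limma 3.58.1 in R 4.3.3 (lmFit, eBayes; 5 residual degrees of freedom, prior 2.88), with Benjamini-Hochberg adjustment over all genes at 0.05. The median residual SD was 0.352 and arrays of a nucleus correlated at 0.950 to 0.965 over genes.

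The genes named are the markers, the 15 largest called differences with a symbol in each direction, the 5 smallest p values under a difference of 2 and of 1, up to 6 called members of each list in each direction or the 2 smallest p values, up to 2 alike members, and partners of called ligands and receptors. The members and lists were chosen with earlier results of these data known. Of 91 called genes with several probes, 12 had a further probe of opposite sign, 1 of them with an unadjusted p under 0.05.

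Alternatives were normexp correction (offset 50), quantile normalization, a percentile over detected probes, no or a stricter filter on dim probes, a floor for low signals, averaged probes, 6 arrays alone, trended and robust eBayes, array weights, blocks for replicate number and slide row, a test against a 2-fold change, and leaving out each array. Probe positions are those of the array design in mm9. Some genes of the lists are not reported here by name.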

Additional observations from a re-analysis of the deposited data

How the results depend on the processing

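No named gene that was called reversed direction in any of 21 alternatives, and 32 of 119 kept their call in all of them. Of 71 named genes that were not called, 31 changed sign in at least 1 alternative. Against 124 genes higher in DMH and 218 in VMH, no filter on dim probes gave 80 and 123 (34822 genes tested), the slide row as a block 66 and 109, and a fold of at least 2 24 and 27. Normexp correction gave 350 and trended, robust eBayes 332 towards VMH. Apart from these, the replicate block below and the omission of single arrays, counts were 85 to 178 towards DMH and 184 to 311 towards VMH. Leaving out 1 array gave 47 to 149 and 57 to 227, and without either Arc array no spread is left in Arc, so the fit rests on 6 arrays.

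Replicate numbers were checked as pairs. Deviations of DMH and VMH arrays with the same number correlated at 0.182, 0.146 and 0.0967, and those with different numbers at -0.124 to -0.0099. Each array thus correlated best with its own number. Deviations within a nucleus cancel out for each gene, so positive values for the same number by themselves pull the other values down. The numbers were still not treated as pairs, because 0.0967 fell narrowly short of 0.1. No test lies behind that limit, and whether the numbers mark pairs was not tested. The main p-values leave out any pairing. The replicate block gave 83 and 113, and 72 of the 124 and 102 of the 218 main calls held.

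The 905 genes alike within 0.5 became 3629 with normexp, 1377 with quantile normalization, 1558 with trended eBayes, 1589 with array weights and 224 under the slide-row block. Leaving out 1 array gave 15 to 724. This set of alternatives was added after the data were seen. The causes of these shifts were not tested. With 3 arrays a nucleus and signals at the lower limit in 58 called genes, small differences and folds of dim genes are the least certain.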
